A study of Mus musculus with 54 samples.

Results

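To ask how accessible chromatin is laid out around the genes that write and erase DNA methylation in mouse embryonic stem (ES) cells, 9 genes were followed through the merged list of accessible regions. The writers were Dnmt1, Dnmt3a, Dnmt3b, Dnmt3l and Uhrf1, and the erasers were Tet1, Tet2, Tet3 and Tdg. Of 113737 peaks in the list, 149 were centred no more than 50 kb from any GENCODE transcription start site (TSS) of these 9 genes, 85 near writers and 64 near erasers. The genes were chosen by name out of 21938 protein-coding genes on chromosomes 1 to 19, X and Y, and the rule itself used no measured value.

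DNA methylation in mammals sits mainly on the cytosine of CG dinucleotides (CpGs). Dnmt3a and Dnmt3b are the de novo methyltransferases, Dnmt3l is their catalytically inactive cofactor, and Dnmt1, recruited by the hemimethyl-CpG binding protein Uhrf1, copies the pattern onto the new strand after replication. The dioxygenases Tet1, Tet2 and Tet3 oxidise 5-methylcytosine, and the glycosylase Tdg removes the later oxidation products so that base excision repair can restore cytosine. Mouse ES cells are known to express both arms, with Tet1 and Tet2 as the main Tet enzymes, Dnmt3l beside the de novo enzymes, and a shorter Dnmt3a form that starts at a promoter inside the gene.

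Accessibility was measured by ATAC-seq, in which the transposase Tn5 cuts and tags open DNA, in ZHBTc4 mouse ES cells kept in serum with LIF and the inhibitors CHIR99021 and PD184352 (2i). In this line doxycycline (dox) shuts off the endogenous Pou5f1 gene, and all cells, controls included, received dox and relied on mCherry-OCT4-AID, an OCT4 fusion made constitutively at a low level from the PGK promoter and degraded through the ligase component Tir1 when indole-3-acetic acid (IAA) is added. The 54 samples fell into 24 groups. In 22 samples (8 groups, 26 hr of dox, with or without 500 nM IAA for 2 hr) and in 16 more (8 groups, 31 hr of dox, with or without IAA for 2.5 hr followed by 4.5 hr of washout) cells carrying the YPet-MD reporter were sorted into the phases EG1, LG1, S and SG2. The last 16 samples (8 groups, 34 hr of dox) were unsorted cells taken without IAA or after 0.5, 1, 2, 3, 4, 6 or 10 hr of it. One peak list merged over the series carries none of these labels, so each value here is a position, a width or a sequence property of a region that was called accessible somewhere in the series. Accessibility in single samples and its change with OCT4 loss were not analysed here, the depth is unknown, and there were no replicates of a peak from which to test a difference.

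Peaks with their centre within 1 kb of a TSS of the gene itself are called TSS peaks, and peaks more than 1 kb from every annotated TSS of any gene are called distal. By this rule the 149 peaks were 19 TSS peaks, 103 distal peaks and 27 peaks within 1 kb of a TSS of another gene only. The split was similar in both sets, with 9 TSS, 59 distal and 17 other peaks for the writers and 10, 44 and 10 for the erasers. Each of the 9 genes had a TSS peak, as did 70.8% of all protein-coding genes.

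The 5 promoter sequences that follow are shown because they span the range of starts found at these genes, from CpG-dense starts inside wide peaks to CpG-poor starts inside narrow peaks or outside any peak. They are the 250 bases 5′ of RefSeq starts in GRCm38.p6, written 5′ to 3′ on the gene's strand, with each CG in capitals.
Tet2, minus strand, chr3:133544391-133544640: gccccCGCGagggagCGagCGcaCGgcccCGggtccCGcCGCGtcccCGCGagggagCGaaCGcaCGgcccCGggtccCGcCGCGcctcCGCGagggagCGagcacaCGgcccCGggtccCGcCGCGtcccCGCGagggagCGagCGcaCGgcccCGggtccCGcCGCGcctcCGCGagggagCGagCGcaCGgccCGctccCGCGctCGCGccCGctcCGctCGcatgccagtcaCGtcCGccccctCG
Dnmt3a, plus strand, chr12:3806730-3806979: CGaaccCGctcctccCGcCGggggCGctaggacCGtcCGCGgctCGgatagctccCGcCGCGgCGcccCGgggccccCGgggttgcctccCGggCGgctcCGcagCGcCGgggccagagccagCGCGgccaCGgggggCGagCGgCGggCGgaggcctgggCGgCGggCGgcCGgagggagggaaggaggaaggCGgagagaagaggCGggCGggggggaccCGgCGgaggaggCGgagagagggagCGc
Uhrf1 downstream start, plus strand, chr17:56304063-56304312: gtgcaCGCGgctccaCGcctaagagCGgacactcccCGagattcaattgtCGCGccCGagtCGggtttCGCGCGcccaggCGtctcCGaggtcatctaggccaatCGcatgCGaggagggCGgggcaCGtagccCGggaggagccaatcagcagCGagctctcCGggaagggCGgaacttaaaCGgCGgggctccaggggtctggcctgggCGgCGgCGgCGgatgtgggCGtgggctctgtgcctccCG
Dnmt3l, plus strand, chr10:78055085-78055334: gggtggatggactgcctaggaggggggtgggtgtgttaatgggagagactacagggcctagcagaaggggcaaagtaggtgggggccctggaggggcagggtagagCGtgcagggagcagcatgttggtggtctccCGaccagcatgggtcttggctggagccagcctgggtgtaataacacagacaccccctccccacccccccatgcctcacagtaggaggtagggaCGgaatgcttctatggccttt
Dnmt1 upstream start, minus strand, chr9:20959889-20960138: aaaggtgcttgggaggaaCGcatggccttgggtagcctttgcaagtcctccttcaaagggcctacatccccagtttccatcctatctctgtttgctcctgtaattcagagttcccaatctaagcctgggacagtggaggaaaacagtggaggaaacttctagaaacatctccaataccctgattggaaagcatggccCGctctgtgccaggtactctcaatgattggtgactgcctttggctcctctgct
The Tet2 stretch held 51 CpGs, the Dnmt3a stretch 38 and the Uhrf1 stretch 30, against a median of 10 (quartiles 3 and 19) over 21255 RefSeq starts of protein-coding genes, and these starts lay inside peaks of 1410, 1740 and 2049 bp. A second RefSeq start of Uhrf1, further upstream in the same peak, had 10 CpGs in its stretch, the same as that median. Inside the 1462-bp Dnmt1 peak, the stretch of the downstream RefSeq start held 26 CpGs and that of the other start there 7. Starts in wide peaks were thus not all CpG-dense. The Dnmt3l stretch held 3 CpGs and its start lay inside a peak of 359 bp. The upstream Dnmt1 stretch held 2, and the nearest peak centre was 7105 bp away.

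Of the 16 RefSeq starts of the 9 genes, 13 lay inside a peak, a share of 81.2%, and 61.3% of the RefSeq starts of protein-coding genes did so. Over all protein-coding genes the median was 16 CpGs upstream of a start inside a peak and 2 upstream of a start outside one. The 3 starts outside a peak were the upstream Dnmt1 start and the first and middle starts of Dnmt3l, with 2, 5 and 4 CpGs. All 3 belonged to writers, which had 12 of the 16 starts, 9 of them inside a peak, while the 4 starts of erasers were all inside one.

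**Figure D1:**
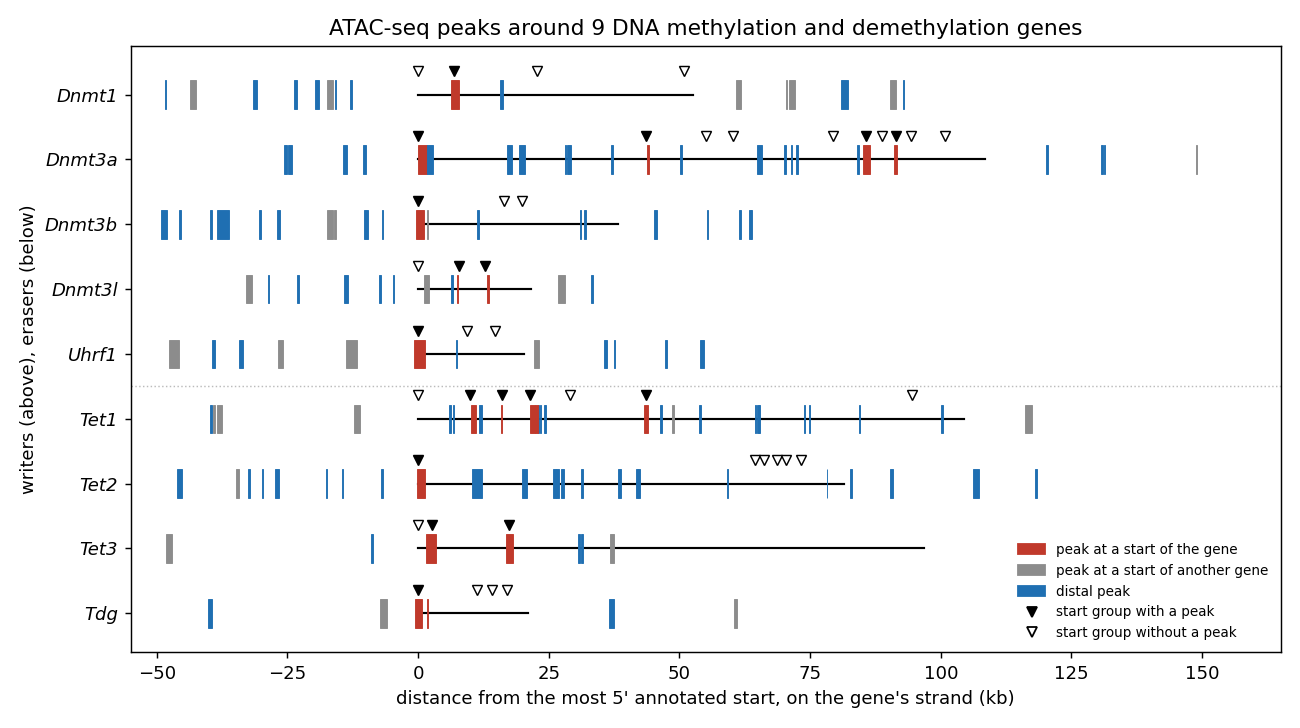
Map of the 149 peaks. Each row is a gene drawn 5′ to 3′ with its body as a black line, the x axis gives the distance in kb from its most 5′ annotated start, red bars are TSS peaks, grey bars are peaks at a TSS of another gene, blue bars are distal peaks, and triangles are groups of starts, filled where a peak lies within 1 kb. The distal peaks of Tet1 lie almost all inside the gene (16 of 17), whereas those of Dnmt3b lie mostly outside it (3 of 16 inside).

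Alternative promoters were examined next. GENCODE M21 annotates 80 TSSs for the 9 genes, and TSSs of a gene closer than 1 kb to each other were joined into 43 start groups. A peak lay within 1 kb of 17 of them (39.5%), against 41% of the start groups of all protein-coding genes. The share was 9 of 23 for writers and 8 of 20 for erasers. Start groups with a protein-coding transcript had a peak in 14 of 28 cases and those made only of noncoding, retained-intron or decay transcripts in 3 of 15. The split by transcript type was not computed over all protein-coding genes, so it is not read as particular to these genes. Peaks at 2 or more start groups were found in 4 genes, namely Dnmt3a, Dnmt3l, Tet1 and Tet3 (44.4% of the 9 genes), and 26.6% of protein-coding genes with at least 2 start groups did so. These 2 shares were not matched for the number of start groups. Its median was 4 for the 9 genes (range 3 to 10) and 2 for all protein-coding genes.

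Among the writers, Dnmt1 (chr9:20907209-20959888, minus strand) had a single TSS peak of 1462 bp. Its centre lay 62 bp from the nearest TSS, and the peak held all 4 TSSs of the second of the gene's 4 start groups. The first start group, a single protein-coding transcript, had no peak within 1 kb. The remaining 2 groups, both of retained-intron transcripts inside the gene, had none either. The peak held 69 CpGs at an observed to expected CpG ratio of 0.53, where 1 is the number that its C and G content alone would give.

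Dnmt3a (chr12:3806007-3914443, plus strand) had 10 start groups, the most of the 9 genes, and 4 of them had a peak. The first was covered by a peak of 1740 bp with 212 CpGs and 76.3% GC, the most CpGs of any of the 149 peaks. The sixth start group, 2 protein-coding starts within the gene, lay in a peak of 1222 bp with 54 CpGs whose centre was 15 bp from the TSS. The other two were narrower and poorer in CpG, a peak of 355 bp with 3 CpGs at a start of a decay transcript and a peak of 588 bp with 11 CpGs at a retained-intron start. Both wide peaks sat at protein-coding starts and both narrow ones at starts without a protein-coding transcript. Of the 6 start groups without a peak, 5 had a protein-coding transcript.

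Dnmt3b (chr2:153649450-153687730, plus strand) had 1 TSS peak, 1618 bp wide with 128 CpGs, which held all 4 TSSs of its first start group and also lay at a start of the antisense gene Dnmt3bos. The other 2 start groups, retained-intron transcripts, had no peak. The single annotated start of Dnmt3bos lay inside this peak. A narrow peak of 211 bp with its centre 1561 bp into the gene was counted with Dnmt3bos because it lay 892 bp from that start, which it did not contain.

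Dnmt3l (chr10:78041947-78063622, plus strand) differed from the other writers in its values. It had TSS peaks at both downstream groups of its 3 start groups, of 233 and 359 bp, with 3 and 5 CpGs. The wider of them stood at percentile 3.63 of the widest TSS peaks of the 15535 protein-coding genes that have one, whose median was 1219 bp. No other member lay below percentile 24.9. The peak of 233 bp did not reach the start it was nearest to, 367 bp from its centre. At the first start group the nearest peak was one of 995 bp with its centre 1298 bp downstream, inside Dnmt3l but at a TSS of the neighbouring Aire gene, the autoimmune regulator of the thymus, so it counted as a peak of Aire.

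Uhrf1 (chr17:56303321-56323486, plus strand) stood at the other end of the range. Its single TSS peak was 2049 bp wide, at percentile 95.2 of the widest TSS peaks, and held all 5 TSSs of the first start group and 125 CpGs. Its other 2 start groups, both of retained-intron transcripts, had no peak within 1 kb.

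Among the erasers, Tet1 (chr10:62804570-62908996, minus strand) had 5 TSS peaks, the most of the 9 genes, at 4 of its 7 start groups. The widest, 973 bp with 60 CpGs, covered the RefSeq start and was at percentile 24.9 of widest TSS peaks. Right beside it, 59 bp away, lay a second TSS peak of 532 bp whose centre was 983 bp from the start, just inside the limit of 1 kb. The other 3 were peaks of 873, 285 and 733 bp with 6, 2 and 19 CpGs. The 285-bp peak contained its start, a protein-coding one, and also lay at a start of the noncoding gene Gm26479. The most 5′ start group of Tet1, also protein-coding, had its nearest peak centre 6123 bp away.

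Tet2 (chr3:133463679-133545139, minus strand) had a single TSS peak of 1410 bp. It held all 5 TSSs of the first start group and 130 CpGs at a CpG ratio of 0.86, the highest ratio of the 19 TSS peaks, and it was shared with a start of the noncoding gene Gm42567. None of the other 5 start groups, 4 of them made of retained-intron transcripts, had a peak within 1 kb.

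Tet3 (chr6:83362373-83459084, minus strand) had 2 TSS peaks of 1797 and 1174 bp with 171 and 63 CpGs, both containing protein-coding starts. The narrower one, at the RefSeq start, was shared with B230319C09Rik. The most 5′ start, also protein-coding, had its nearest peak centre 2441 bp away. Tdg (chr10:82629828-82650799, plus strand) had a peak of 1280 bp with 95 CpGs at its first start group and a peak of 227 bp with its centre 874 bp downstream of a TSS. Its 3 internal start groups had no peak.

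The number of distal peaks differed widely within each set. Among writers it was 9 for Dnmt1, 20 for Dnmt3a, 16 for Dnmt3b, 7 for Dnmt3l and 7 for Uhrf1, and among erasers 17 for Tet1, 22 for Tet2, 3 for Tet3 and 2 for Tdg. The median over all protein-coding genes was 4 (quartiles 2 and 7), and 5 (3 and 8) over those with a TSS peak. The 4 highest of the 9 stood far up among all protein-coding genes, Tet2 at percentile 99.2, Dnmt3a at 98.9, Tet1 at 97.9 and Dnmt3b at 97.4. Tet3 and Tdg, at percentiles 35.6 and 24.8, were the only 2 of the 9 below the median.

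**Figure D2:**
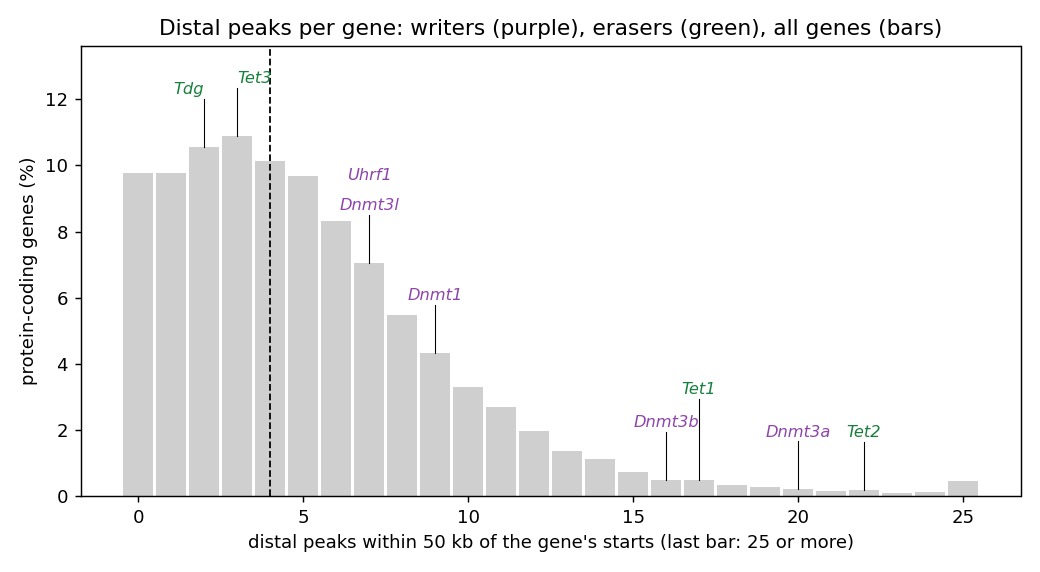
Distal peaks within 50 kb of the gene's starts (x axis) against the share of protein-coding genes with that number (y axis, %). Bars are all 21938 protein-coding genes, the dashed line is their median of 4, and the names mark the 5 writers (purple) and 4 erasers (green), with Dnmt3l and Uhrf1 both at 7. Dnmt3a, Dnmt3b, Tet1 and Tet2 lie in the right tail, between 16 and 22.

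A gene with many starts spread over a long body is given a longer window, so counts were also taken per 100 kb of window. The windows ran from 113 kb for Dnmt3l to 201 kb for Dnmt3a. Per 100 kb the order became Dnmt3b with 13.3, Tet2 with 12.7, Dnmt3a with 9.96, Tet1 with 8.74, Dnmt3l with 6.17, Uhrf1 with 6.10, Dnmt1 with 5.96, Tet3 with 2.55 and Tdg with 1.71 distal peaks, against a median of 3.92 over all protein-coding genes. The same 4 genes led the order, Tet1 moved down to percentile 89.3 and Dnmt3a to 93.4, and Tet3 and Tdg stayed last. The counts did depend on the settings. With 20 kb in place of 50 kb the counts were 16 for Dnmt3a, 12 for Tet1, 9 for Tet2, 5 each for Dnmt3b and Dnmt3l, 4 for Dnmt1, 3 for Tet3 and 1 each for Uhrf1 and Tdg. With 100 kb they rose by over 1.5 times for Dnmt1, to 16, Dnmt3b, to 27, Uhrf1, to 11, Tet3, to 5, and Tdg, to 4. Medians over all protein-coding genes were not computed for windows of 20 or 100 kb. With a TSS radius of 2500 bp in place of 1 kb, Dnmt1 had 4 distal peaks in place of 9 and Dnmt3l 4 in place of 7.

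Set against each other, the writers lay within the range of the erasers in the number of distal peaks, though not per 100 kb, where Dnmt3b lay highest. The medians were 9 distal peaks for writers (range 7 to 20) and 10 for erasers (range 2 to 22), or 6.17 and 5.65 per 100 kb. Both the highest and the lowest count belonged to erasers, and 3 of the 4 erasers lay outside the range of the writers. A difference of 1 peak between medians of 5 and 4 genes could not be tested, and its sign changed with the window and with the gene left out. No order of the sets is read from it.

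Where the distal peaks lay relative to the gene differed more in value. Of the writers' 59 distal peaks 19 were inside their own gene (32.2%), and of the erasers' 44 it was 29 (65.9%). Over all protein-coding genes the share was 27.7%. Gene length moved with this share, since the median length was 38281 bp for writers, 89086.5 bp for erasers and 17425 bp for all protein-coding genes, and the part of length in it was not tested. Tet1 held 16 of 17 inside, Tet2 11 of 22, Tet3 2 of 3 and Tdg 0 of 2, so that without Tet1 the erasers' number was 13 of 27. Among the writers Dnmt3a held 13 of 20, and Dnmt3l and Uhrf1 held 1 of 7 each. For Dnmt3b 8 of 16 lay 5′ of the gene, 3 inside and 5 beyond its 3′ end, and for Dnmt1 the numbers were 6, 1 and 2 of 9. By the annotation at the peak centre, the writers' distal peaks were 30 intronic, 20 intergenic and 9 exonic, and those of the erasers 33, 7 and 4, counting introns and exons of any gene. All distal peaks of the list were 44.3% intronic, 49.6% intergenic and 6.14% exonic.

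The median distance of a distal peak to the nearest TSS of its gene was 19460 bp for writers and 18485 bp for erasers. The closest distal peak lay nearest to a start in Dnmt3a (1176 bp), Tet1 (1396 bp), Dnmt3l (1461 bp) and Uhrf1 (2022 bp). It lay 4912 bp away in Tet2, 4941 bp in Dnmt3b, 6733 bp in Dnmt1, 8833 bp in Tet3 and 19894 bp in Tdg. The Dnmt3a peak is the 1086-bp region that follows the wide TSS peak after a gap of 77 bp, just outside the limit of 1 kb, so that the first Dnmt3a promoter and this region together spanned 2903 bp. At the outer limit, the peak of Tdg just beyond 50 kb lay 50553 bp from a start and was 226 bp wide, while the last peak inside the limit lay at 43650 bp and was 408 bp wide.

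The 27 peaks counted with another gene lay within 1 kb of starts of 25 neighbouring genes, or 28 with those that share a TSS peak with a member. Of the 27 peaks, 4 lay inside a member gene, near starts of Dnmt3bos in Dnmt3b, Aire in Dnmt3l, Gm48353 in Tet1 and 5430434F05Rik in Tet3. Around Dnmt1 the windows took in promoters of A230050P20Rik, Ppan, Gm24067, Eif3g (a translation initiation factor subunit), S1pr2 (a sphingosine-1-phosphate receptor) and Mrpl4 (a mitochondrial ribosomal protein). Around Uhrf1 they took in Fem1a, Ticam1, Plin3 and Kdm4b, the last of which encodes a histone H3 lysine 9 demethylase and whose introns hold 4 of the 7 distal peaks counted for Uhrf1. Around Dnmt3l they took in Pfkl and Icosl beside Aire, around Dnmt3b Commd7, and around Dnmt3a Pomc. For the erasers the list was Ccar1, Slc25a16 and Dna2 for Tet1, Gm49316 for Tet2, Dguok for Tet3, and 1190007I07Rik and Glt8d2 for Tdg. Distance alone does not say which gene a distal peak acts on. The 4 distal peaks 35457 to 43871 bp downstream of the nearest Dnmt3b start, for example, lay in introns of Dnmt3c, a de novo methyltransferase gene of the male germline.

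TSS peaks had a higher median width than distal peaks in 8 of the 9 genes, and the widths of the 2 kinds overlapped in 6 of the 9. The same shares over all protein-coding genes were not computed, so no trait of these genes is read from the counts. The median width was 973 bp for the 19 TSS peaks and 395 bp for the 103 distal peaks, against 1068 bp over all TSS peaks of protein-coding genes and 380 bp over all distal peaks. For writers the medians were 1222 and 445 bp, and for erasers 923 and 301 bp. By gene, the erasers' distal medians were 257 bp in Tet1, 427.5 bp in Tet2, 388 bp in Tet3 and 715.5 bp in Tdg. Those of the writers ran from 410.5 bp in Dnmt3b to 618 bp in Uhrf1, so the low value of the erasers was mainly that of Tet1. In Dnmt3l the 2 TSS peaks (median 296 bp) were narrower than the median of its 7 distal peaks (445 bp), and in Tdg the medians were close, 753.5 and 715.5 bp. Only in Dnmt1, Uhrf1 and Tet3 was each TSS peak wider than each distal peak. Widths of merged regions can grow with the number and depth of the libraries merged.

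**Figure D3:**
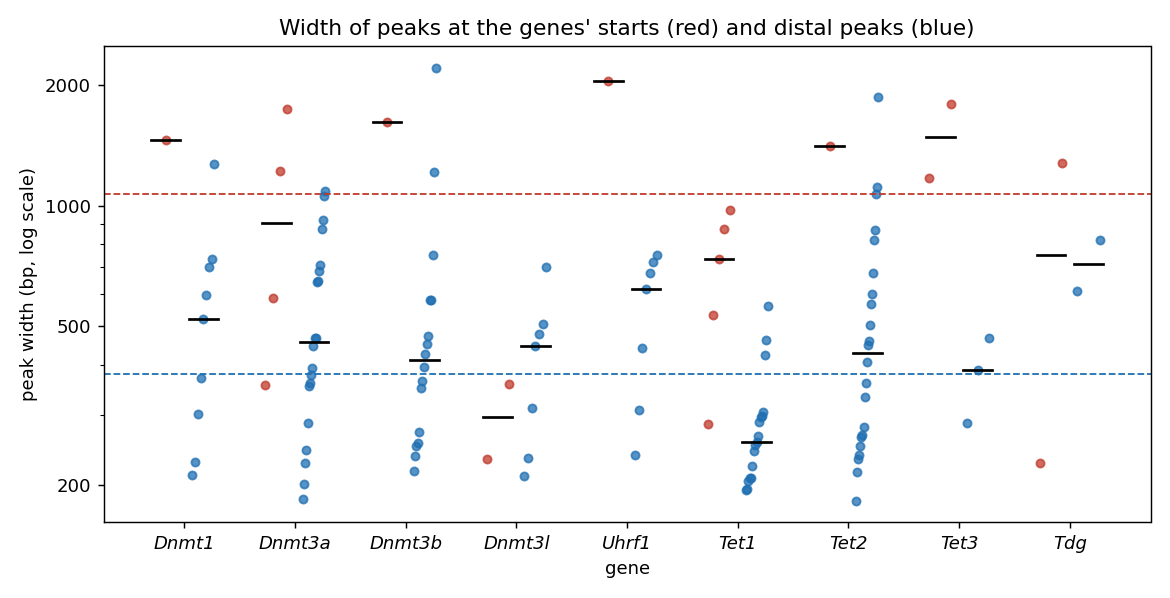
Width of each peak (y axis, bp, log scale) for TSS peaks (red) and distal peaks (blue) of each gene. Black bars are medians per gene, and dashed lines are the medians over all TSS peaks of protein-coding genes (1068 bp, red) and all distal peaks (380 bp, blue). The TSS peaks of Dnmt3l and the distal peaks of Tet1 sit low in their classes.

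Most distal peaks of Tet1 were narrow. The 17 ranged from 194 to 560 bp with a median of 257 bp, and 13 of them (76.5%) were narrower than 300 bp, against 37.1% of all distal peaks. The widest distal peak of the 9 genes, 2212 bp, was an intergenic region 37382 bp upstream of Dnmt3b, at percentile 99.9 of all distal peaks, and Tet2 had one of 1870 bp in an intron 10425 bp downstream of its start, at percentile 99.7. Dnmt1 had one of 1270 bp centred in an exon of Angptl6, at percentile 97.4. Of the 103 distal peaks 8 were at least 1 kb wide, 5 near writers and 3 near erasers, a share of 7.77% against 7.28% of all distal peaks.

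Some neighbouring peaks were separated by only a few bases. Of the distal peaks 19 (18.4%) lay less than 200 bp from another peak, 7 of 59 for writers and 12 of 44 for erasers, and the share was 6.91% over all distal peaks. At the main Tet1 promoter 4 peaks with gaps of 42 to 117 bp followed each other over 2230 bp, and a further pair with a gap of 11 bp lay further into the gene. Pairs of this kind also lay in introns of Tet2, with a gap of 17 bp, and of Tet3, with a gap of 23 bp, where the pair made up 2 of the 3 distal peaks of the gene. Counts per gene therefore depend on whether such neighbours were merged.

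CpG content followed the same lines. The median CpG ratio was 0.53 in the 19 TSS peaks and 0.20 in the distal peaks, against 0.64 and 0.21 over all TSS peaks of protein-coding genes and all distal peaks. A peak was called CpG-rich when it was at least 200 bp wide with over 50% GC and a CpG ratio over 0.6, the usual criteria of a CpG island. Of the TSS peaks 8 of 19 were CpG-rich (42.1%), against 54.1% of all TSS peaks of protein-coding genes. They were 1 each of Dnmt3a, Dnmt3b, Uhrf1, Tet2, Tet3 and Tdg and 2 of Tet1, whereas neither Dnmt1 (ratio 0.53) nor Dnmt3l (0.24 and 0.16) had one. The criteria were applied to whole peaks, and denser parts can lie within them. Upstream of a RefSeq start inside the 1462-bp Dnmt1 peak, 250 bases held 26 CpGs at 68.4% GC. Of the distal peaks 4 of 103 were CpG-rich (3.88%), against 2.46% of all distal peaks. These were the peak at Angptl6 near Dnmt1, with 88 CpGs, 2 near Dnmt3l, and 1 of the narrow peaks beside the main Tet1 promoter.

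**Figure D4:**
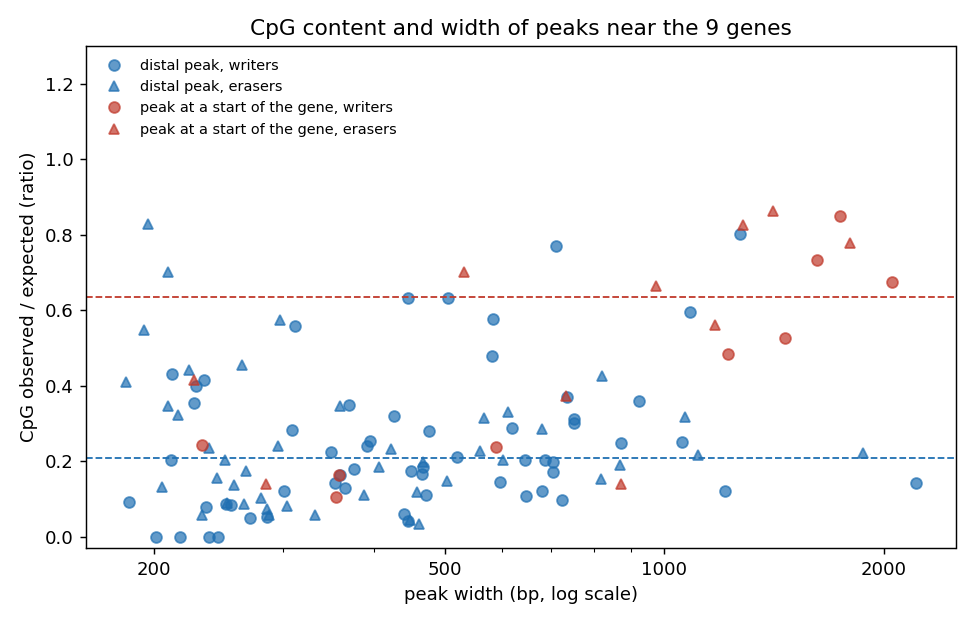
Observed to expected CpG ratio (y axis) against width (x axis, bp, log scale) for TSS peaks (red) and distal peaks (blue) of writers (circles) and erasers (triangles). Dashed lines are the medians over all TSS peaks of protein-coding genes (0.64, red) and all distal peaks (0.21, blue). Wide TSS peaks lie at ratios from 0.49 to 0.86, and most distal peaks lie near or below the blue line.

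The sequence of the peaks was then searched for motifs of pluripotency factors and of CTCF on both strands. The letters were ATTTGCAT for the octamer of OCT4 (OCT), CCATTGT for SOX factors, TCAAGGTCA for ESRRB and GGGNGNGGC for KLF factors, and the consensus motifs of CTCF and of OCT4::SOX2 were allowed 1 and 2 mismatches. The octamer letters overlap the OCT part of the OCT4::SOX2 motif. Of the 103 distal peaks 3 held an OCT match (2.91%), against 3.05% of all distal peaks. A SOX match was found in 10 (9.71%, against 9.52%), 2 of 59 for writers and 8 of 44 for erasers. An ESRRB match was found in 4 (3.88%, against 3.11%), a KLF match in 17 (16.5%, against 17.1%), 13 for writers and 4 for erasers, and an OCT4::SOX2 match in 3 (2.91%, against 1.19%). Each of these pooled shares but the last was within 1 percentage point of that over all distal peaks, and the last rests on 3 peaks: with up to 3 mismatches the order turned, to 7 of the 103 (6.80%) against 9.47% of all distal peaks. CTCF matches were found in 26 distal peaks (25.2%, against 16.1%), 19 of 59 for writers and 7 of 44 for erasers. In central windows of 300 bp, which are the same length for each peak, the CTCF share was 16.5% against 12.9%, with 18.6% for writers and 13.6% for erasers. For peaks narrower than 300 bp, which were 15 of 59 for writers and 22 of 44 for erasers, these windows also took in bases outside the peak. In the same windows the SOX share was 3.39% for writers (2 peaks) and 11.4% for erasers (5 peaks), against 6.74% of all distal peaks. For KLF it was 16.9% (10 peaks) and 9.09% (4 peaks), against 12.1%. Over the 103 distal peaks together the window shares were 6.80% for SOX and 13.6% for KLF. An OCT4::SOX2 match lay in the windows of 2 peaks (1.94%, against 0.80% of all distal peaks), both of writers. The median width of distal peaks was 445 bp for writers and 301 bp for erasers, of whose 44 peaks 17 were of Tet1 (median 257 bp). Shares over whole peaks are therefore not on an equal footing between the sets.

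The stretches around the matches of OCT4's own motifs in distal peaks are shown because OCT4 is the factor that the experiments removed. They are read from the plus strand of GRCm38.p6 with 30 bases on each side, or fewer where the peak ends, and the capitals mark the match.
Dnmt3b OCT4::SOX2, chr2:153622679-153622753: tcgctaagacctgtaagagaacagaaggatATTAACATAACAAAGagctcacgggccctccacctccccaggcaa
Dnmt3l OCT4::SOX2, chr10:78048324-78048398: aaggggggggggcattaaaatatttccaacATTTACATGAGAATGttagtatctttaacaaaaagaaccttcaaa
Tet2 OCT4::SOX2, chr3:133534453-133534527: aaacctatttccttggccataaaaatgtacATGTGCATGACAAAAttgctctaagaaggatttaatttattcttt
Dnmt3b OCT, chr2:153713012-153713066: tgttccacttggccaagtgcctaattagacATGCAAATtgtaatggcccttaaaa
Tet1 OCT, chr10:62902979-62903046: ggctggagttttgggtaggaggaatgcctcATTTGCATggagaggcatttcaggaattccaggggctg
Tet2 OCT, chr3:133513842-133513909: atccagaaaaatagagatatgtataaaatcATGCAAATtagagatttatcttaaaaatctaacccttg
The Dnmt3l match lay 20 bp from the centre of a 476-bp intronic peak, which is also the distal peak closest to a Dnmt3l start, 1461 bp upstream of it. The Dnmt3b OCT4::SOX2 match lay in a peak centred in an exon of Commd7, which encodes a COMM domain protein, 26632 bp upstream of the nearest Dnmt3b start, and the OCT match in a peak centred in an intron of Dnmt3c. In Tet2 the OCT4::SOX2 match lay 629 bp from the centre of the 1870-bp intronic peak, and a 360-bp peak centred in an exon held 2 OCT matches, of which the one nearer the centre is shown. The Tet1 match lay 140 bp from the centre of a 462-bp intronic peak, which is centred 3755 bp upstream of the nearest Tet1 start. No OCT or OCT4::SOX2 letters were found in the distal peaks of Dnmt1, Dnmt3a, Uhrf1, Tet3 or Tdg, or in any of the 19 TSS peaks. At starts of other genes, an OCT4::SOX2 match lay in the 689-bp peak at 5430434F05Rik inside Tet3, and an OCT match in the 814-bp peak at Dna2 near Tet1. A match is a run of letters and not a measured binding site.

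The same counts were taken for 24 other genes of the pathway. A TSS peak was present at 23 of them, at 22 with a TSS radius of 500 bp and at 24 with 2500 bp. The exception at 1 kb was Dppa3, which encodes a maternal protein that keeps Uhrf1 from chromatin. Its nearest distal peak lay 1409 bp from a start, and 12 distal peaks lay within 50 kb. The 6 methyl-CpG readers all had a TSS peak and a median of 7.5 distal peaks. The 6 partners of methylation had a median of 9.5 (range 6 to 15), the 8 partners of demethylation and base excision repair 4 (range 1 to 11), and the 4 methyl donor and Tet regulator genes 3.5 (range 3 to 12). Over the 24 genes the median was 6.5, between those of the 9 members (9) and of all protein-coding genes (4). The highest counts were 19 for Mbd2, a methyl-CpG binding protein, 15 for Usp7, a deubiquitinase that stabilises Dnmt1 and Uhrf1, and 13 for Pcna, the replication clamp.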

How the data were processed

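ATAC-seq libraries of 54 samples in 24 groups, grouped by GEO's labels, were aligned by the authors to GRCm38 with STAR 2.6.1c, cleared of duplicates with Picard, and called for peaks with MACS2 2.1.1.20160309 (versions per the submitters' processing notes). The deposited file is 1 list of merged regions, whose other columns beside the chromosome are start and end positions in bp, with no count, score or signal. Whether peaks were called per library or on pooled replicates is not stated. The methods describe removing regions above 5 kb, regions called in input samples and blacklisted regions, yet 11 above 5 kb remained in the list. Number and width of merged regions can grow with depth, which is unknown.

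Positions are 1-based and were compared with GENCODE M21 and GRCm38.p6 in Python 3.11.15 with numpy 2.4.6, pandas 2.3.3 and matplotlib 3.10.9. A TSS peak has its centre within 1 kb of a TSS of the gene, a distal peak lies over 1 kb from every TSS, and windows reach 50 kb from any TSS of the gene. Percentiles are midpoints over protein-coding genes or peaks. Promoter sequences come from RefSeq (GRCm38.p6), which matched all 9 genes with 16 starts. CpGs and motifs were read from the genome sequence, and the code was tested on simulated data with planted peaks and motifs.

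No test was run, since a single merged list has no replicates and genes are not replicates. The genes, the pathway list and the comparisons were chosen with earlier results of these data known. All 9 genes are named, with pathway genes that lacked a TSS peak or had the 3 highest distal counts, neighbours with a peak at their TSS, and peaks that were the widest or nearest distal ones, lay at a start or held an OCT or OCT4::SOX2 match. The CpG-rich distal peaks and the runs of close peaks were named after their values were seen. Alternatives covered the window, the TSS radius, narrow and wide peaks, the TSS set, edges in place of centres, motif mismatches and each gene left out.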

Additional observations from a re-analysis of the deposited data

How the results depend on the processing

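No paired analysis was possible because the merged list holds no value per sample. All 9 genes had a TSS peak under each TSS radius, TSS set, edge and width alternative tried. With windows of 20 kb the 149 peaks fell to 89 and the 103 distal peaks to 56, and the medians of distal peaks to 5 for writers and 6 for erasers; with windows of 100 kb the writers' median rose to 16. These follow from the length of the window. The difference of medians, writers minus erasers, was -1, and it turned to 3 with windows of 100 kb. It was 0 without peaks under 200 bp, -5 with TSSs of protein-coding transcripts only, -3 with the nearest edge and also with a TSS radius of 500 bp, and -1.5 with a radius of 2500 bp. Leaving out each gene in turn (leave-one-out) gave -8 to 6. It was 6 without Tet1 or Tet2, 2.5 without Dnmt3l or Uhrf1, 1.5 without Dnmt1, -2 without Dnmt3a or Dnmt3b and -8 without Tet3 or Tdg. A TSS radius of 2500 bp raised the 19 TSS peaks to 29 and lowered their median width from 973 to 588 bp, as more narrow peaks then counted. With up to 3 mismatches the OCT4::SOX2 motif was found in 7 distal peaks in place of 3, or 6.80% against 9.47% of all distal peaks, so its share then lay below the background.

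A merged list without scores or depth limits what can be read. A missing peak says that the list holds no region there, whether it was not called or was removed by the authors' filters, and merging sets widths too.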
